A study of Caenorhabditis elegans with 24 samples.

Results

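The 31 genes rps-0 to rps-30 encode proteins of the small (40S) subunit of the cytosolic ribosome in *Caenorhabditis elegans*. They were chosen by name, with no measured value used, and are 31 of the 45461 genes in the deposited table. All 31 passed the filter on low values that left 8345 protein coding genes for testing. Total mRNA and mRNA bound to 2 or more ribosomes (polysomal mRNA) were sequenced from lysates of whole worms. The 3 worm populations are written here as DR, *daf-2;rsks-1* and AL. DR was wild-type N2 under dietary restriction, fed OP50 bacteria at 9 log10 CFU per the labels. The *daf-2;rsks-1* double mutant, which carries lesions in the insulin receptor gene and in the gene for S6 kinase, was on the AL diet and had no restricted counterpart. AL was N2 fed ad libitum, at 11 log10 CFU. All worms were age-synchronized, held at 20 °C with FUdR, which prevents progeny, placed on their diet at day 1 of adulthood and lysed at day 4. Each population gave 4 libraries of each mRNA pool, 24 in all, from biological replicates. The mutant alleles are not given in the sources used here.

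The small subunit binds the mRNA, scans it for the start codon and reads the codons, and its proteins sit around a single 18S rRNA. Their mRNAs are short and abundant, and in mammals they are the best known class whose loading onto polysomes is set by TOR signalling. S6 kinase, the product of *rsks-1*, phosphorylates ribosomal protein S6, the product of *rps-6*, while *daf-2* acts upstream in insulin signalling, and reduced food lowers signalling through both pathways.

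The libraries held 7960544 to 15658505 reads on genes. Values are CPM as the authors scaled them, reads of a gene relative to the reads of its library times a composition factor, so each value is relative to the other mRNAs of its own library and gives neither mRNA per worm nor the number of ribosomes. In whole worms, fewer cells of a type and less RNA per cell cannot be told apart. The transcript of *rsks-1* was at 11.3 to 17.4 CPM in the 8 *daf-2;rsks-1* libraries, against at least 76.6 CPM in total mRNA of AL worms. Ribosomal RNA took 11.5 to 20.9% of reads in polysomal DR libraries and 1.88 to 7.77% in polysomal AL libraries, and its part in the results was not tested. Library 1 of polysomal *daf-2;rsks-1* mRNA stood above the other 3 of its group in the summed rps level, and results that rest on it are given with and without it. A difference was tested with limma on log2(CPM + 0.5) over all tested genes. It passed the test at an adjusted p under 0.05 (Benjamini-Hochberg), and was called when it was also at least 2-fold. Differences are on the log2 scale with their SE.

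The proteins are small, with 56 residues for rps-29 (B0412.4), the zinc-binding protein uS14, to 276 residues for rps-0 (B0393.1), the protein uS2. Their coding regions have a median of 447 bases, against 1191 bases over all tested genes, and their 3′ UTRs a median of 57 bases, against 157. The genes lie on chromosomes I (8), II (1), III (9), IV (10) and V (3). Introns of 5 of them, rps-4, rps-12, rps-13, rps-23 and rps-29, hold annotated snoRNA genes. Exons of 27 genes overlap no other gene. In rps-20 the microRNA gene cel-mir-354 covers 18.7% of the exon bases, and in rps-18 the gene hhat-2 covers 8.36% on the other strand, which reads from this unstranded kit cannot separate.

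Per kb of coding sequence, levels of the 31 genes in total mRNA of AL worms ran over a 4.95-fold range. The highest was rps-25 (K02B2.5), a protein of the subunit head, at 6383 CPM per kb, and the lowest was rps-2 (C49H3.11), which lines the mRNA entry channel, at 1290 CPM per kb. In total mRNA the range was 4.23-fold in DR worms, where rps-8 led, and 3.14-fold in *daf-2;rsks-1* worms, where rps-25 led again. In polysomal mRNA the range was 9.21-fold in DR, 6.02-fold in *daf-2;rsks-1* and 7.66-fold in AL worms, and rps-12 was lowest in each. On DR polysomes rps-12 was at 844.6 CPM per kb, the next lowest at 2500 (rps-28) and the highest at 7778 (rps-9). On *daf-2;rsks-1* polysomes these were 599.8, 1267 (rps-22) and 3612 (rps-23). The wider polysomal range in DR and mutant worms thus rests on rps-12. On AL polysomes rps-12 was at 1328 and the next lowest, rps-2, at 1915. The libraries of neighbours in this order overlapped in 21 of 30 adjacent pairs in total mRNA of AL worms but in 14 of 30 on AL polysomes, and in 23 to 29 of 30 in the DR and mutant groups.

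Summed over the 31 genes, total mRNA held 70470 to 74400 CPM in DR worms and 45710 to 48710 CPM in *daf-2;rsks-1* worms, against 53850 to 56020 CPM in AL worms. These ranges did not overlap. In polysomal mRNA the sum was 73810 to 77560 CPM in DR worms, against 76530 to 77890 CPM in AL worms, which overlap. Polysomal *daf-2;rsks-1* libraries held 31180 to 37640 CPM, with library 1 the highest, and all 4 lay below every AL library of either pool. The polysomal sum was thus above the total sum in AL worms, overlapped it in DR worms and was below it in *daf-2;rsks-1* worms. The overlap in DR worms depends on which reads are counted. As a plain share of reads the 31 genes took 5.96 to 6.69% on DR polysomes, against 7.41 to 7.71% in DR total mRNA. As a share of reads on protein coding genes they took 7.587 to 7.766% and 7.525 to 7.84%, which overlap. Under plain CPM, with no composition factor, the DR polysomal sum was 0.908 times the AL mean, and as CPM of reads outside ribosomal genes 1.05 times, so its direction depends on the scaling.

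**Figure D1:**
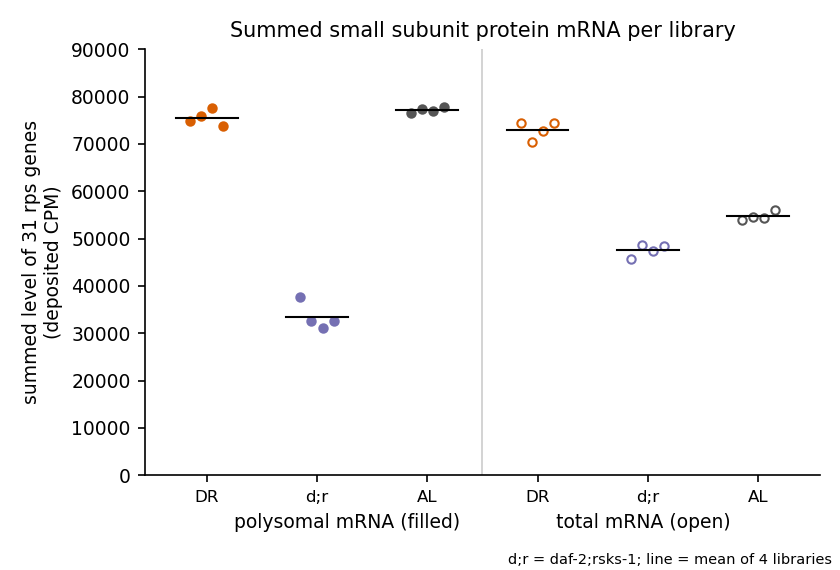
Summed level of the 31 rps genes (deposited CPM) in each library, with polysomal mRNA as filled and total mRNA as open points, and a line at the mean of 4 libraries. Polysomal *daf-2;rsks-1* libraries, at 31180 to 37640 CPM, lie below all others, and DR and AL polysomal libraries overlap.

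The first comparison asks how restriction changed the abundance of these mRNAs. In total mRNA, 30 of the 31 genes rose in DR worms against AL worms and none fell, and the median difference was 0.35, against -0.07 over all tested genes. Of all tested genes 34.7% rose and 45.2% fell. For 30 genes all 4 DR libraries lay above all 4 AL libraries, against 33.8% of tested genes. At the 2-fold limit 1 member was called as higher, a share close to the 3.57% of tested genes.

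That member was rps-13 (C16A3.9), which encodes uS15, a protein at the contact with the large subunit. It had 2211, 2072, 2151 and 2186 CPM in DR worms, against 907.6, 924.4, 877.5 and 930.6 CPM in AL worms. The lowest DR library was far above the highest AL library, and the difference was 1.24 ± 0.04 (SE) (adjusted p = 8.59e-28). Next came rps-17 (T08B2.10), a protein of the subunit head, with 2050, 1940, 2025 and 2019 CPM in DR worms against 1139, 1138, 1138 and 1194 CPM in AL worms, a difference of 0.80 ± 0.03 (SE). rps-6 (Y71A12B.1), which encodes the S6 kinase substrate, had 1954, 1871, 1879 and 1945 CPM in DR worms, against 1104, 1158, 1142 and 1160 CPM in AL worms. Its groups did not overlap either, with a difference of 0.74 ± 0.04 (SE).

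At the other end stood rps-16 (T01C3.6), whose protein reaches the peptidyl site. It had 2134, 1924, 2073 and 2065 CPM in DR worms, against 1854, 1977, 1955 and 2011 CPM in AL worms. These groups overlapped and it did not pass, at 0.07 ± 0.04 (SE) (adjusted p = 0.123). It did pass under each of 2 other scalings, plain CPM (0.12) and CPM of reads outside ribosomal genes (0.17). On the deposited scaling it passed in a separate fit of the N2 libraries alone (0.07). It also passed there without total DR library 2 (0.10) or without polysomal *daf-2;rsks-1* library 1 (0.07). rps-0 had 3527, 3363, 3392 and 3505 CPM in DR worms, against 3044, 3095, 3079 and 3133 CPM in AL worms, a difference of 0.16 ± 0.03 (SE). rps-27 (F56E10.4), a zinc-binding protein, had 1224, 1098, 1141 and 1213 CPM in DR worms, against 1021, 1025, 990.2 and 1041 CPM in AL worms, a difference of 0.20 ± 0.04 (SE). Both rose with no overlap between the groups, though by far less than rps-13. The remaining 25 genes rose by 0.20 to 0.68.

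On polysomes the picture was split. In DR worms against AL worms 9 genes rose and 20 fell, while 34.5% of all tested genes rose and 47.6% fell. The members' median was -0.14, against -0.10 over all tested genes. The same 9 had all DR libraries above all AL libraries and the same 20 had all below, against 30.4% and 41.8% of tested genes. The split moved with the scaling, to 10 higher and 15 lower under TMM over the tested genes and 7 and 22 under plain CPM. As CPM of reads outside ribosomal genes it was 10 and 14. All genes shifted too, and the members' median minus that of all genes was -0.04 under each of these scalings and as deposited.

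The largest rises on DR polysomes were in rps-13, rps-2 and rps-6. rps-13 had 3277, 3251, 3409 and 3091 CPM in DR worms, against 1410, 1376, 1424 and 1396 CPM in AL worms, a difference of 1.22 ± 0.04 (SE) (adjusted p = 2.01e-27). It was the 1 member called as higher, against 7.03% of tested genes. rps-2 had 3043, 3111, 3201 and 2918 CPM in DR worms, against 1553, 1563, 1586 and 1547 CPM in AL worms, a difference of 0.97 ± 0.04 (SE). It stood just under the 2-fold limit, and TMM over the tested genes carried it past. rps-6 had 2991, 3009, 3221 and 2970 CPM in DR worms, against 1697, 1647, 1707 and 1614 CPM in AL worms, a difference of 0.87 ± 0.04 (SE). In all 3 genes every DR library was far above every AL library.

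The other 6 that rose included rps-9 (F40F8.10), uS4 of the mRNA entry side, with 4353, 4527, 4576 and 4183 CPM in DR worms against 2947, 3012, 2919 and 2998 CPM in AL worms, a difference of 0.57 ± 0.04 (SE). rps-5 (T05E11.1), uS7 of the mRNA exit side, had 4071, 4201, 4299 and 3959 CPM in DR worms, against 2893, 2848, 2875 and 2890 CPM in AL worms, a difference of 0.52 ± 0.04 (SE). rps-17 had 2515, 2499, 2408 and 2467 CPM in DR worms, against 1823, 1916, 1785 and 1870 CPM in AL worms, a difference of 0.42 ± 0.03 (SE). These 3 were well separated, and the last 3 less so. rps-22 (F53A3.3), uS8 of the body, had 1081, 1066, 1078 and 1064 CPM in DR worms, against 919.6, 914.8, 948.1 and 942.1 CPM in AL worms, a difference of 0.20 ± 0.04 (SE). rps-20 (Y105E8A.16), uS10 of the head, had 1181, 1194, 1244 and 1094 CPM in DR worms, against 1034, 1015, 1034 and 1032 CPM in AL worms, a difference of 0.19 ± 0.04 (SE). rps-4 (Y43B11AR.4), a body protein, had 3297, 3414, 3427 and 3238 CPM in DR worms, against 3102, 3062, 2998 and 2917 CPM in AL worms, a difference of 0.15 ± 0.04 (SE). Under plain CPM rps-20 (0.09) and rps-4 (0.04) did not pass.

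The genes that fell most on DR polysomes had risen in total mRNA. rps-28 (Y41D4B.5), a head protein near the mRNA exit, had 490, 456.8, 492.8 and 510.8 CPM in DR worms, against 819.7, 839.6, 858.4 and 911.1 CPM in AL worms, a difference of -0.81 ± 0.05 (SE) (adjusted p = 7.96e-19). rps-14 (F37C12.9), uS11 of the platform, had 1938, 1903, 1967 and 1880 CPM in DR worms, against 3093, 3108, 3092 and 3116 CPM in AL worms, a difference of -0.69 ± 0.04 (SE). rps-25 had 1635, 1653, 1691 and 1649 CPM in DR worms, against 2507, 2654, 2692 and 2704 CPM in AL worms, a difference of -0.67 ± 0.04 (SE). All 12 DR values lay below their AL groups, while in total mRNA the same genes differed by 0.35, 0.44 and 0.23. rps-0 fell less, with 2465, 2482, 2539 and 2422 CPM in DR worms against 3436, 3446, 3395 and 3376 CPM in AL worms, a difference of -0.46 ± 0.03 (SE). The genes rps-1 (F56F3.5; -0.01) and rps-29 (-0.03) did not pass, although rps-1 passed as higher, at 0.07, under TMM over the tested genes.

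**Figure D2:**
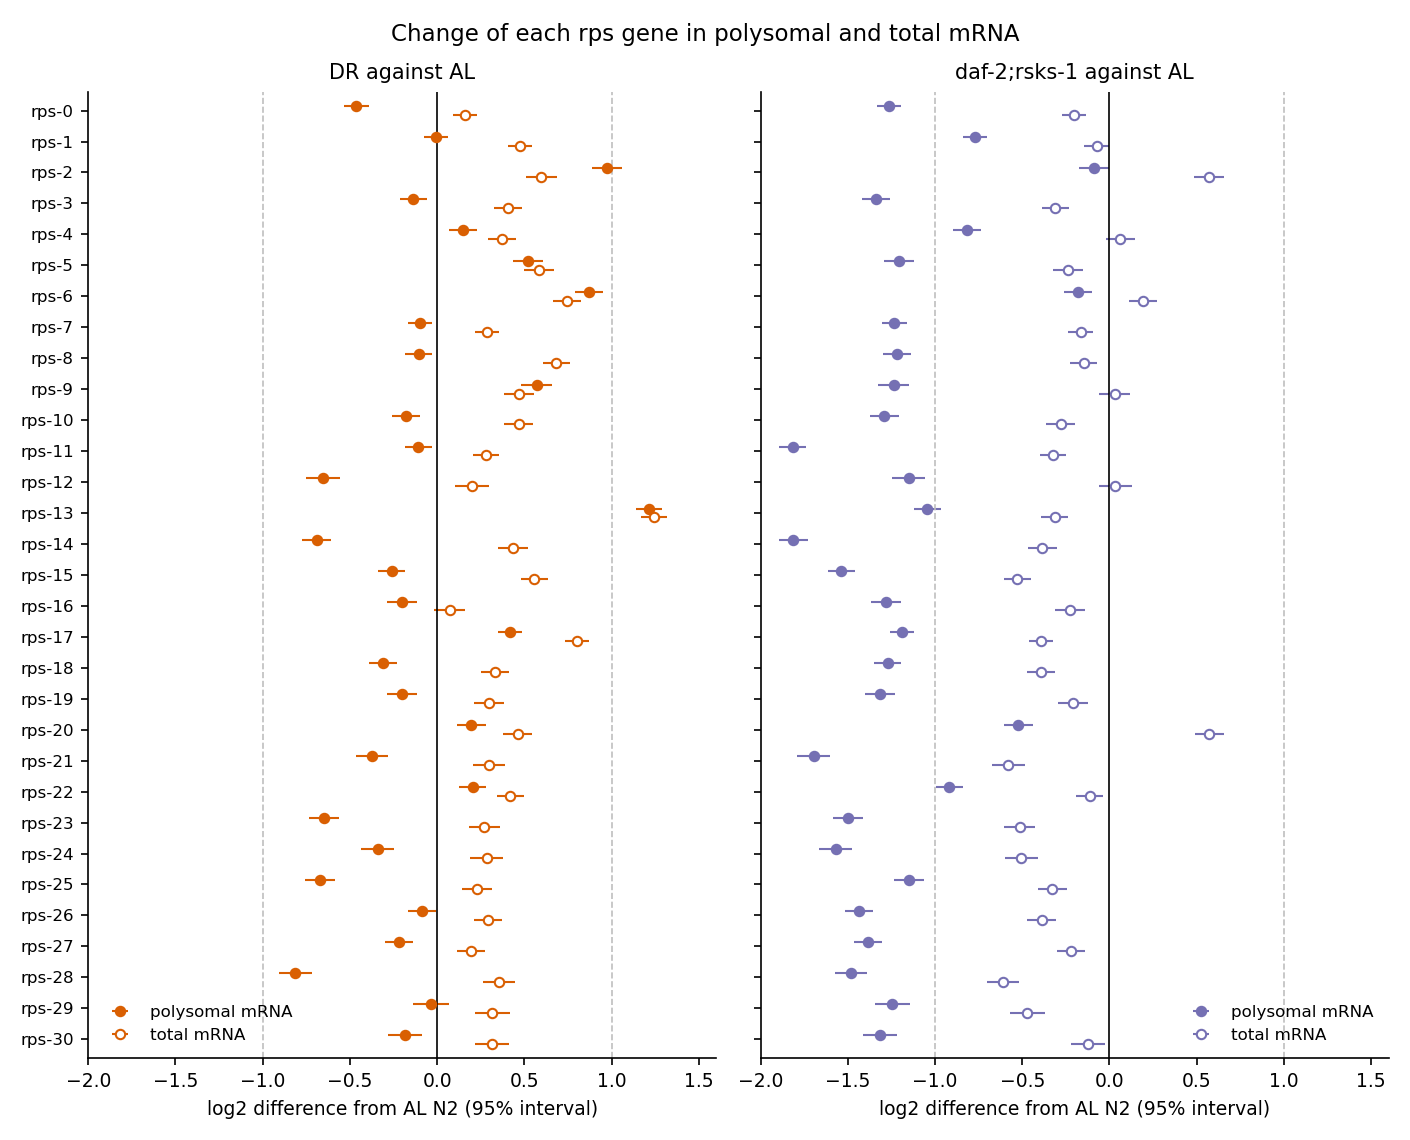
Log2 difference from AL for each rps gene (points, with 95% intervals), in DR worms on the left and *daf-2;rsks-1* worms on the right, with filled points for polysomal and open points for total mRNA, and dashed lines at 2-fold. Under DR the total mRNA points lie right of 0 and the polysomal ones on both sides; in the mutant most polysomal points lie left of the dashed line, at a median of -1.26.

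The interaction asks whether the polysomal to total ratio differed between diets, that is, whether polysome association changed beyond abundance. It was lower under DR than under AL for 26 members and higher for 2, while 32% of all tested genes were lower and 35.4% higher. The members' median was -0.48, against 0.02 over all tested genes. The 2 called as lower, against 1.79% of tested genes, were rps-28 at -1.17 ± 0.07 (SE) and rps-14 at -1.13 ± 0.06 (SE) (adjusted p = 3.94e-19). In total mRNA rps-28 had 746.2, 661.7, 769.4 and 738.9 CPM in DR worms, against 545.6, 564.9, 555.7 and 613.1 CPM in AL worms. rps-14 had 2991, 2832, 2930 and 2985 CPM in total mRNA of DR worms, against 2096, 2172, 2194 and 2218 CPM in AL worms. Both were thus higher in every DR library of total mRNA and lower in every DR library on polysomes. rps-23 (F28D1.7), uS12 of the decoding centre, followed at -0.92 ± 0.06 (SE). It had 2769, 2825, 2804 and 2732 CPM on DR polysomes, against 4218, 4386, 4316 and 4535 CPM on AL polysomes. In total mRNA it had 3135, 3008, 3099 and 3198 CPM in DR worms, against 2560, 2580, 2589 and 2574 CPM in AL worms. Its DR libraries were thus the lower ones on polysomes and the higher ones in total mRNA.

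The ratio was higher under DR for rps-2, at 0.37 ± 0.06 (SE) (adjusted p = 1.09e-06), and for rps-6, at 0.13 ± 0.06 (SE) (adjusted p = 0.045). In total mRNA rps-2 had 1628, 1521, 1608 and 1611 CPM in DR worms, against 1055, 1072, 966.5 and 1117 CPM in AL worms, so it was higher in both pools. The rps-6 call was marginal. It was lost with a replicate block (adjusted p = 0.0566) and turned to -0.04 under plain CPM. It was also lost without any 1 of 9 libraries, at an adjusted p of 0.0501 to 0.123 (AL total 2, 3 and 4, AL polysomal 2 and 4, DR total 2 and 3, DR polysomal 3 and *daf-2;rsks-1* polysomal 2). rps-9 (0.10), rps-13 (-0.03) and rps-5 (-0.06) did not pass, though rps-9 passed without polysomal *daf-2;rsks-1* library 1 and under TMM over the tested genes (0.17), and the other 2 passed as lower under plain CPM. In total mRNA rps-9 had 2758, 2629, 2712 and 2794 CPM in DR worms, against 1949, 1944, 1962 and 2013 CPM in AL worms. The ratio of rps-0 was lower under DR, at -0.62 ± 0.05 (SE). For rps-13 the 95% interval was -0.14 to 0.08. Across the 31 genes the total and polysomal differences under DR, which share no library, had Pearson's r = 0.742 and Spearman's rho = 0.663, as a description over genes that are not independent replicates, beside 0.77 and 0.657 over all tested genes.

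The *daf-2;rsks-1* worms were compared with the same AL libraries, so the DR and mutant values share their controls and are given side by side only. In total mRNA 24 members fell in *daf-2;rsks-1* worms and 3 rose, while 48.4% of all tested genes fell and 29.4% rose. The median difference was -0.24, against -0.11 over all tested genes, and no member was called. All 4 mutant libraries lay below all 4 AL libraries for 25 members and above them for 3, against 47.2% and 28.3% of tested genes. The split was 20 lower and 6 higher under TMM over the tested genes, and 18 and 6 under plain CPM. The members' median minus that of all genes was -0.12 under both, against -0.13 as deposited.

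The largest falls were in rps-28, rps-21 and rps-15. rps-28 had 361.9, 355.7, 403 and 370.8 CPM in *daf-2;rsks-1* worms, against 545.6, 564.9, 555.7 and 613.1 CPM in AL worms, a difference of -0.61 ± 0.05 (SE) (adjusted p = 7.87e-15). rps-21 (F37C12.11), a small body protein that contacts uS2, had 732.8, 795.2, 794.9 and 797.5 CPM in *daf-2;rsks-1* worms, against 1130, 1197, 1155 and 1183 CPM in AL worms, a difference of -0.58 ± 0.05 (SE). rps-15 (F36A2.6), uS19 of the head, had 1526, 1613, 1628 and 1620 CPM in *daf-2;rsks-1* worms, against 2257, 2323, 2278 and 2349 CPM in AL worms, a difference of -0.53 ± 0.04 (SE). No mutant library reached an AL library in these genes, although each had risen under DR.

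The 3 that rose in *daf-2;rsks-1* worms were rps-2, rps-20 and rps-6. rps-2 had 1465, 1670, 1530 and 1594 CPM in *daf-2;rsks-1* worms, against 1055, 1072, 966.5 and 1117 CPM in AL worms, a difference of 0.57 ± 0.04 (SE). rps-20 had 1513, 1644, 1525 and 1629 CPM in *daf-2;rsks-1* worms, against 1035, 1080, 1042 and 1085 CPM in AL worms, a difference of 0.57 ± 0.04 (SE). rps-6 had 1279, 1351, 1237 and 1356 CPM in *daf-2;rsks-1* worms, against 1104, 1158, 1142 and 1160 CPM in AL worms, a difference of 0.19 ± 0.04 (SE). The groups did not overlap in any of the 3. rps-0, by contrast, fell, with 2558, 2807, 2628 and 2744 CPM in *daf-2;rsks-1* worms against 3044, 3095, 3079 and 3133 CPM in AL worms, a difference of -0.20 ± 0.03 (SE). The 4 that did not pass were rps-1 (-0.07), rps-4 (0.06), rps-9 (0.03) and rps-12 (0.03). Of these, rps-1 passed as lower without total *daf-2;rsks-1* library 2 or without polysomal *daf-2;rsks-1* library 1 or 3. Its sign turned, without passing, under TMM over the tested genes (0.04) and plain CPM (0.05). rps-4 passed as higher without total *daf-2;rsks-1* library 1 (0.09). It also passed as higher under TMM over the tested genes (0.18), plain CPM (0.19) and CPM of reads outside ribosomal genes (0.16). Under the same 3 scalings rps-9 passed as higher too, at 0.14, 0.15 and 0.12.

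On polysomes nearly all members fell in the mutant. In *daf-2;rsks-1* worms against AL worms 30 of 31 members fell, against 45.9% of tested genes, and 25 were called as lower, against 6.2%. The median was -1.26, against -0.08 over all tested genes. For 29 members every mutant library was below every AL library, against 41.5% of tested genes. Without polysomal library 1 of the mutant, 31 fell, 25 were called and the median was -1.32. The number called depends on the scaling, with 24 under TMM over the tested genes, 21 as CPM of reads outside ribosomal genes and 12 under plain CPM, which moved the median of all genes to 0.22 and that of the members to -0.96. The gap between the 2 medians was -1.18 under each of these scalings.

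The largest falls were in rps-11, rps-14 and rps-21. rps-11 (F40F11.1), uS17 of the body, had 964.9, 847.9, 791 and 868.1 CPM in *daf-2;rsks-1* worms, against 2999, 3089, 3018 and 3099 CPM in AL worms, a difference of -1.82 ± 0.04 (SE) (adjusted p = 3.69e-33). rps-14 had 1021, 866.3, 799.1 and 859.8 CPM in *daf-2;rsks-1* worms, against 3093, 3108, 3092 and 3116 CPM in AL worms, a difference of -1.81 ± 0.04 (SE). rps-21 had 593.6, 488.2, 460.8 and 484.6 CPM in *daf-2;rsks-1* worms, against 1587, 1619, 1615 and 1718 CPM in AL worms, a difference of -1.70 ± 0.05 (SE). Every mutant library lay far below every AL library in these 3 genes, and library 1 was the highest of the mutant group in each. rps-0 stood close to the median of the members, with 1534, 1408, 1348 and 1399 CPM in *daf-2;rsks-1* worms against 3436, 3446, 3395 and 3376 CPM in AL worms, a difference of -1.26 ± 0.03 (SE).

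The members that fell least on mutant polysomes were those that had risen in total mRNA. rps-2 had 1614, 1448, 1368 and 1462 CPM in *daf-2;rsks-1* worms, against 1553, 1563, 1586 and 1547 CPM in AL worms, which overlap through library 1. It did not pass, at -0.09 ± 0.04 (SE) (adjusted p = 0.0587), passed as lower without library 1 (-0.13) or without total AL library 3 (-0.09), and passed as higher under plain CPM (0.22). rps-6 had 1636, 1455, 1359 and 1443 CPM in *daf-2;rsks-1* worms, against 1697, 1647, 1707 and 1614 CPM in AL worms, which also overlap through library 1. Its difference was -0.18 ± 0.04 (SE), but 0.13 under plain CPM. rps-20 had 806.6, 684.5, 684.9 and 696.2 CPM in *daf-2;rsks-1* worms, against 1034, 1015, 1034 and 1032 CPM in AL worms, a difference of -0.52 ± 0.04 (SE) with no overlap. The 5 members that fell by less than 2-fold were rps-6, rps-20, rps-1 (-0.77), rps-4 (-0.81) and rps-22 (-0.92).

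**Figure D3:**
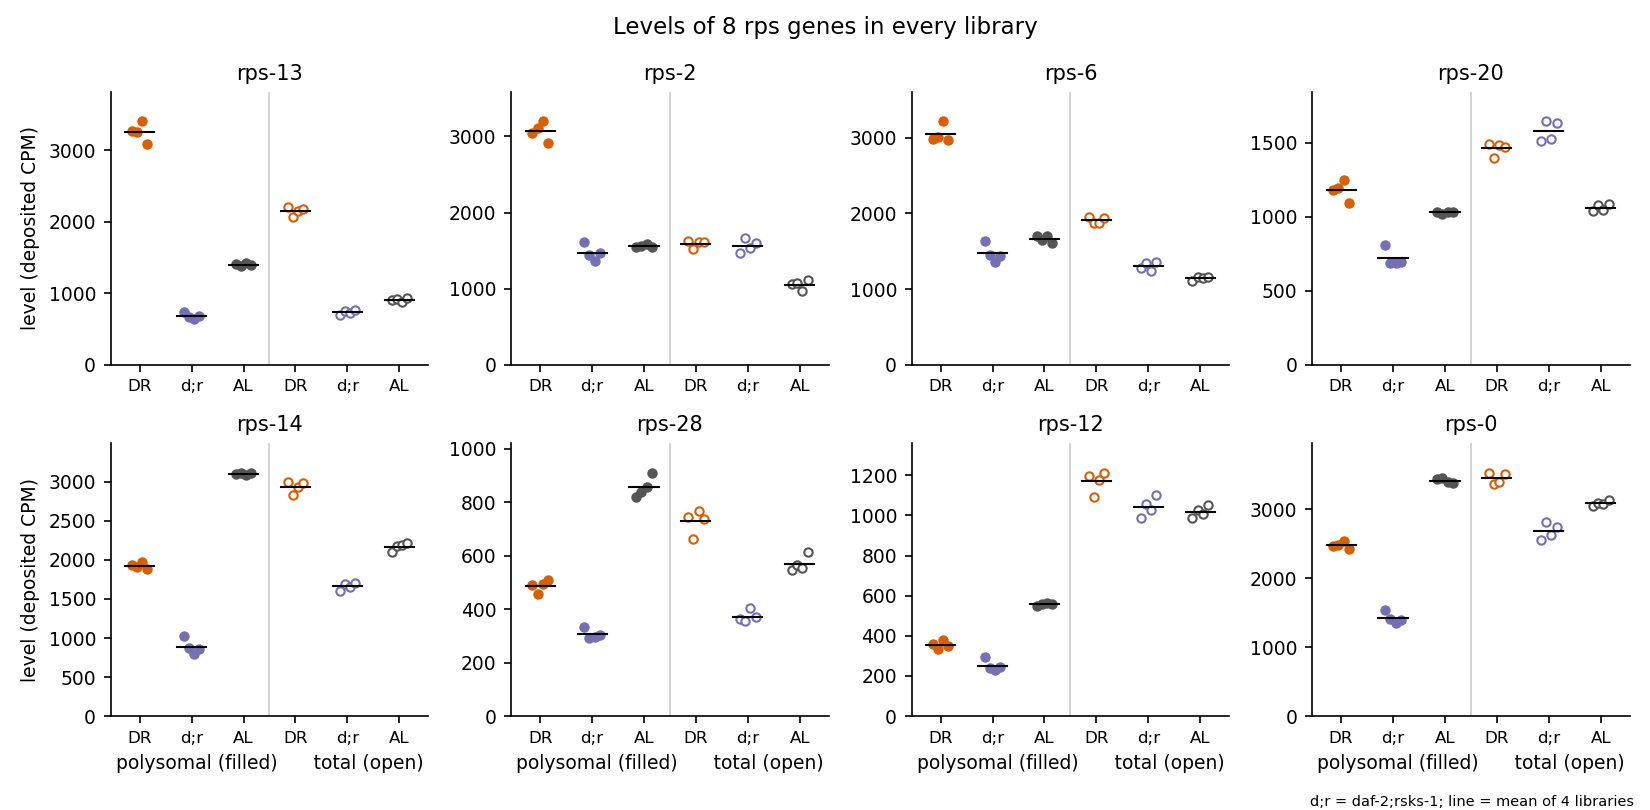
Level (deposited CPM, axes starting at 0) of 8 rps genes in every library, with polysomal mRNA as filled and total mRNA as open points; d;r is *daf-2;rsks-1* and lines are means of 4 libraries. rps-13, rps-2 and rps-6 are highest on DR polysomes, rps-20 in total mRNA of the mutant, rps-14 and rps-28 on AL polysomes, and rps-12 is lower on polysomes than in total mRNA in every population.

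The polysomal to total ratio was lower in *daf-2;rsks-1* worms than in AL worms for all 31 members, against 28.6% of tested genes, and 18 were called, against 1.22%. The median was -1.03, against -0.01 over all tested genes. Of the 102 tested genes called as lower, 18 (17.6%) were rps genes and 26 (25.5%) were rpl genes of the large subunit. Those 18 were 58.1% of the rps genes. All 31 stayed lower under every scaling and without any single library, but the number called varied, since the members' median sat close to 2-fold. It was 20 without polysomal library 1 of the mutant and 19 under TMM over the tested genes. As CPM of reads outside ribosomal genes it was 7, and under plain CPM 5. These last scalings also moved the median of all genes, to 0.09 and 0.17. The members' median minus that of all genes was -1.01 under both and as deposited.

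The strongest shifts were rps-11 at -1.49 ± 0.05 (SE), rps-14 at -1.43 ± 0.06 (SE) (adjusted p = 1.75e-21) and rps-9 at -1.27 ± 0.06 (SE). In total mRNA rps-11 had 1653, 1682, 1725 and 1692 CPM in *daf-2;rsks-1* worms, against 2090, 2091, 2094 and 2178 CPM in AL worms. rps-14 had 1606, 1685, 1655 and 1705 CPM in total mRNA of *daf-2;rsks-1* worms, against 2096, 2172, 2194 and 2218 CPM in AL worms. Both fell in total mRNA by far less than on polysomes. rps-9 had 1453, 1210, 1171 and 1217 CPM on *daf-2;rsks-1* polysomes, against 2947, 3012, 2919 and 2998 CPM on AL polysomes. In total mRNA it had 1913, 2084, 1975 and 2060 CPM in *daf-2;rsks-1* worms, against 1949, 1944, 1962 and 2013 CPM in AL worms, and did not pass. Its fall on polysomes thus came with overlapping levels in total mRNA on the deposited scaling. Under TMM over the tested genes its total mRNA passed as higher in the mutant (0.14). rps-0 was at -1.06 ± 0.05 (SE). The weakest shift was that of rps-6, at -0.37 ± 0.06 (SE) (adjusted p = 5.54e-07), followed by rps-2 at -0.66 ± 0.06 (SE) and rps-1 at -0.70 ± 0.05 (SE). rps-1, eS1 of the platform, had 2339, 2088, 1998 and 2070 CPM on *daf-2;rsks-1* polysomes, against 3642, 3623, 3599 and 3621 CPM on AL polysomes. In total mRNA it had 2476, 2575, 2517 and 2558 CPM in *daf-2;rsks-1* worms, against 2658, 2647, 2644 and 2706 CPM in AL worms. Across the 31 genes the total and polysomal differences in the mutant had Pearson's r = 0.832 and Spearman's rho = 0.723, beside 0.864 and 0.745 over all tested genes.

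Within each population the ratio itself can be read as polysomal over total mRNA. In DR worms it was above 0 for 13 members and below 0 for 10, while 43.4% of tested genes were above and 45.4% below, and the median was 0.03. This split moved to 20 and 8 under TMM over the tested genes and to 4 and 24 under plain CPM. The median of all genes moved as well, from -0.02 as deposited to 0.09 under TMM and -0.32 under plain CPM. The members' median minus that of all genes was 0.05 in each. In *daf-2;rsks-1* worms 29 members were below 0 and 1 above, while 43.5% of tested genes were below and 41% above, with a median of -0.49. The 1 above was rps-6, at 0.17 ± 0.04 (SE). In AL worms 28 members were above 0 and 1 below, while 44.8% of tested genes were above and 41.6% below, with a median of 0.55. The 2 that did not pass in AL worms were rps-20 (-0.04) and rps-29 (-0.03).

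The lowest ratio in each population was that of rps-12 (F54E7.2), which encodes eS12 of the beak of the head and was picked out after its values were seen. It had 358.6, 333.7, 378.9 and 347.6 CPM on polysomes and 1198, 1091, 1178 and 1213 CPM in total mRNA of DR worms, a ratio of -1.72 ± 0.05 (SE). In *daf-2;rsks-1* worms it had 294, 240.4, 230.6 and 242.8 CPM on polysomes and 987.8, 1059, 1025 and 1101 CPM in total mRNA, a ratio of -2.05 ± 0.05 (SE). In AL worms it had 546.5, 559.1, 564.8 and 561.2 CPM on polysomes and from 985.8 to 1050 CPM over the 4 libraries of total mRNA, a ratio of -0.87 ± 0.05 (SE). Every polysomal library was thus below every total library, and total levels in the mutant and AL worms overlapped. It was the 1 member called as lower in DR worms, against 15.9% of tested genes. In *daf-2;rsks-1* worms rps-12 and rps-20 (-1.14 ± 0.04 (SE)) were the 2 called, against 9.59% of tested genes. Both are among the few members whose exons or introns hold another annotated RNA gene, a microRNA in an exon of rps-20 and snoRNAs in introns of rps-12, and the part of these RNAs in the ratio was not tested. The other 4 members with snoRNAs in introns had ratios of -0.64, -0.11, -0.23 and -0.80 in the mutant (rps-4, rps-13, rps-23 and rps-29).

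**Figure D4:**
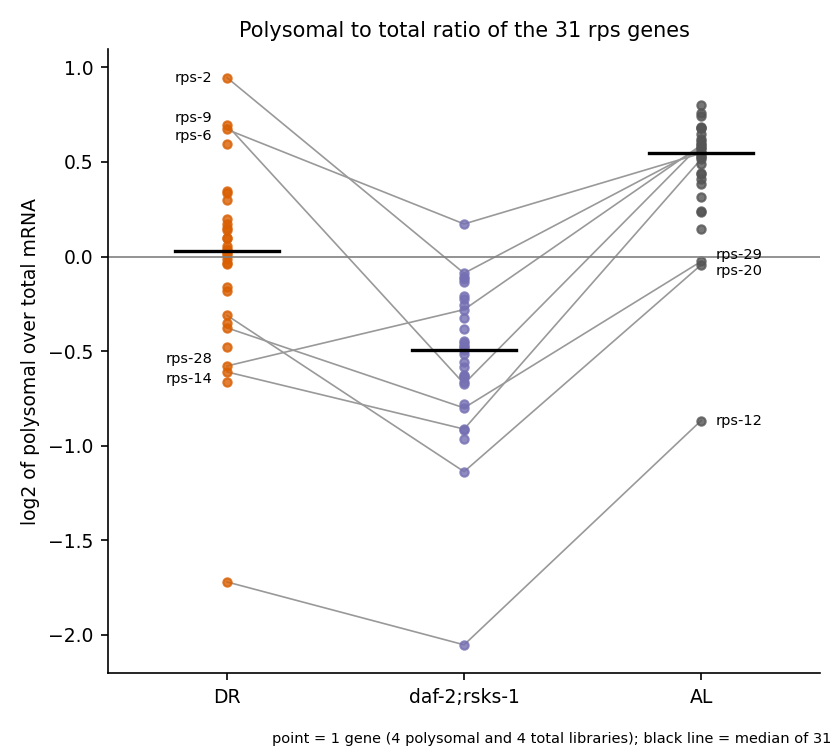
Log2 of polysomal over total mRNA for the 31 rps genes in DR, *daf-2;rsks-1* and AL worms (1 point per gene from 4 libraries of each pool; black lines are medians, grey lines join 8 named genes). The medians are 0.03, -0.49 and 0.55 in that order, and rps-12 is lowest in each population.

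The ratio was also set against length. Pearson's r between the ratio and log2 coding length over the 31 genes was 0.341 in DR, 0.173 in *daf-2;rsks-1* and 0.117 in AL worms, while over all tested genes it was -0.258, -0.253 and -0.196. These are descriptions over genes that share all libraries. The 2453 other tested genes with coding regions between those of rps-29 and rps-0 in length had a median mutant effect on the ratio of 0.00, against -1.03 for the rps genes, and a median diet effect of 0.18, against -0.48.

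The mutant and DR worms differed in both genotype and diet, whose parts cannot be told apart when they are compared. Set directly against DR worms, *daf-2;rsks-1* worms had lower total mRNA for 29 members and higher for 1, while 42.2% of tested genes were lower and 40.3% higher. The members' median was -0.60. The 1 that was higher was rps-20, at 0.11 ± 0.04 (SE), and rps-2 did not pass, at -0.03. The 3 called as lower, against 5.03% of tested genes, were rps-13 at -1.56 ± 0.04 (SE), rps-17 at -1.19 ± 0.03 (SE) and rps-15 at -1.08 ± 0.04 (SE). On polysomes all 31 were lower in the mutant than in DR worms, against 41% of tested genes, and 22 were called, against 8.32%. The median was -1.12, though under plain CPM 29 were lower and 5 called. rps-13 again differed most, at -2.26 ± 0.04 (SE). The ratio was lower in the mutant than under DR for 28 members and higher for 1, rps-28 at 0.30 ± 0.07 (SE), while 36.7% of tested genes were lower and 31% higher. Under plain CPM that split was 16 and 5, while the median of all genes moved from -0.04 to 0.30. The members' median minus that of all genes was -0.44 there, against -0.45 as deposited.

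Of the 31 proteins, 15 belong to universal families also found in bacteria (uS names) and 16 to families of eukaryotes and archaea (eS names). The median mutant effect on the ratio was -1.01 for the universal and -1.05 for the others, with 8 of 15 and 10 of 16 called. The median diet effect was -0.35 for the universal and -0.50 for the others. By place in the subunit, the 13 proteins of the head had a median mutant effect of -1.01 and a median diet effect of -0.54, and the 18 of the body and platform had -1.06 and -0.40. Differences between classes were not tested. The genes not yet described, rps-3, rps-7, rps-8, rps-10, rps-18, rps-19, rps-24, rps-26 and rps-30, each rose in total mRNA and fell on polysomes under DR, fell in both pools in the mutant and had lower ratios in both, on the deposited scaling.

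The small subunit also holds rack-1 and ubl-1 products, which the rps names do not cover. rack-1, the scaffold protein RACK1 of the head, had a mutant effect on the ratio of -0.62 ± 0.05 (SE), and ubl-1, a ubiquitin fused to eS31, had -0.81 ± 0.07 (SE), both past the test. Among rpl genes, 44 of 47 were tested, and all 44 had a lower ratio in the mutant than in AL worms, with a median of -1.04 beside -1.03 for rps genes. Under DR their median diet effect was -0.52 beside -0.48, and their total mRNA differed from AL by a median of 0.45 beside 0.35. Of all tested genes 28.6% had a lower and 26.1% a higher ratio in the mutant than in AL worms. The 26 tested genes of the small subunit of mitochondrial ribosomes had a median mutant effect of -0.03, with 8 lower (30.8%) and 5 higher (19.2%). The 30 tested initiation and elongation factors had -0.12, with 15 lower (50%) and 4 higher (13.3%). The 24 factors of subunit assembly had -0.06, with 10 lower (41.7%) and 6 higher (25%). A list of 17 genes around insulin, TOR and S6 kinase signalling, with aak-2, hlh-30, ife-2 and ncl-1 among them, had 0.06. In it 3 were lower (17.6%) and 6 higher (35.3%). It includes the mutated genes, daf-2, which was higher (0.31), and rsks-1, which did not pass (-0.17).

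Marker levels of tissues moved between the same groups, and their part in these results was not tested. The summed level of 12 germ line and oocyte markers in polysomal mRNA was 4841 to 5123 CPM in DR and 6858 to 7713 CPM in *daf-2;rsks-1* worms, against 9302 to 10030 CPM in AL worms. Of these 12, 10 fell and 1 rose on polysomes in DR worms, and 8 fell and 3 rose in *daf-2;rsks-1* worms. In total mRNA it was 11330 to 11860 CPM in DR and 10500 to 11170 CPM in *daf-2;rsks-1* worms, against 16190 to 16960 CPM in AL worms. The 8 muscle markers summed in total mRNA to 2536 to 2584 CPM in DR and 1627 to 1744 CPM in *daf-2;rsks-1* worms, against 1114 to 1157 CPM in AL worms. The 7 intestinal markers summed on polysomes to 3131 to 3376 CPM in DR and 865.5 to 951 CPM in *daf-2;rsks-1* worms, against 1973 to 2143 CPM in AL worms. In total mRNA the intestinal sum was 1209 to 1255 CPM in DR and 591.2 to 619.1 CPM in *daf-2;rsks-1* worms, against 1343 to 1419 CPM in AL worms. Under DR the sum was thus higher on polysomes and lower in total mRNA. Single intestinal markers moved both ways, with 3 higher and 4 lower than AL in either pool of *daf-2;rsks-1* worms. In DR worms 6 were higher and 1 lower on polysomes, and 1 higher and 4 lower in total mRNA. The muscle sum on polysomes was 3942 to 4134 CPM in DR and 1541 to 1620 CPM in *daf-2;rsks-1* worms, against 1061 to 1162 CPM in AL worms. The sums of 6 epidermal markers in total mRNA were 1282 to 1400 CPM in DR and 583.3 to 641.7 CPM in *daf-2;rsks-1* worms, against 896.7 to 1039 CPM in AL worms. Only 3 of these 6 were tested, and in total mRNA 2 rose and 1 fell in DR worms, while 1 rose and 2 fell in *daf-2;rsks-1* worms. The 8 neuronal markers summed in total mRNA to 534.8 to 545 CPM in DR and 465.3 to 474.1 CPM in *daf-2;rsks-1* worms, against 377 to 401.6 CPM in AL worms. Of these 8, 7 were tested. In total mRNA all 7 rose in DR worms, while 4 rose and 1 fell in *daf-2;rsks-1* worms. No marker of these lists was at 0 in every library of a group.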

How the data were processed

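Polyadenylated RNA of total lysate and of sucrose gradient fractions with 2 or more ribosomes was sequenced with an unstranded kit. Per the labels and the methods, TopHat alignment to WS220 with Ensembl gene models was followed by counting in HTSeq (0.6.1) and scaling in edgeR (3.0). The signal values that the authors deposited are CPM per effective library size, not plain CPM as the planned test assumed. The test was kept. In every library 100% of values were whole multiples of 1 step within 0.05 reads, so reads were recovered. Column sums ran from 864992 to 1237732.

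Protein coding genes (Ensembl 115 types, 44936 of 45461 identifiers matched) with a mean of at least 8 CPM were kept. limma 3.58.1 in R 4.3.3 with a trended variance was fitted to log2(CPM + 0.5) of the 6 groups of 4 libraries, and p-values were adjusted over all 8345 genes. It was also run on simulated reads with 200 changed genes and the same spread set for every gene. There it recovered 78.5% of changes of 0.5 (log2) in DR against AL total mRNA but 30.5% in the mutant effect on the ratio. Of changes of 1.5 it recovered 100% in both. The simulated spread was not taken from these data, where the median SE was 0.0613 for DR against AL total mRNA and 0.0867 for the diet effect on the ratio. The shares therefore do not give the power reached here. Small ratio effects can still be missed, at a rate not measured. An edgeR 4.0.16 quasi-likelihood test on recovered reads called 977 genes between *daf-2;rsks-1* and AL polysomal mRNA, against 925 by limma, and 1310 between DR and AL polysomal mRNA, against 1269. DESeq2 1.42.0, other scalings, filters, pseudocounts, a replicate block and leaving out libraries were alternatives. Named with values in every library of their comparison were the 3 highest and 3 lowest members of each main comparison, members moving against the majority, rps-0 and rps-6. The rps genes are defined by name alone, but this set, the lists and the tests were chosen with earlier results of these data known. Between 2 libraries of a group the reads differed by a chi-square of 1.26 to 32 per degree of freedom, where sampling noise alone gives about 1. Some replicates thus differed by little more than sampling noise, and pairs across groups were not compared in this way. Overlapping genes and near-identical copies were not resolved.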

Additional observations from a re-analysis of the deposited data

Results flagged for a closer look

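With 4 libraries a group, single libraries stood apart by Dixon's test (95% level) in 16 of 192 groups, where chance alone flags about 1 in 20 groups, or 9.6. The 192 groups are the 31 genes and their sum in 6 groups each. In polysomal *daf-2;rsks-1* mRNA library 1 was flagged as high for 6 genes, namely rps-9 (1453 CPM), rps-10 (1122 CPM), rps-15 (1558 CPM), rps-20 (806.6 CPM), rps-23 (1817 CPM) and rps-24 (1275 CPM). It was the highest of its group for every other rps gene as well, without a flag. In total *daf-2;rsks-1* mRNA library 1 was flagged as low for rps-15 (1526 CPM), rps-16 (1633 CPM) and rps-21 (732.8 CPM). It was also the lowest for others without a flag, such as rps-0 (2558 CPM). Among DR polysomal libraries, library 1 was flagged as low for rps-1 (3504 CPM), and library 3 as high for rps-6 (3221 CPM) and rps-18 (2523 CPM). In total mRNA of AL worms library 4 was flagged as high for rps-11 (2178 CPM), rps-17 (1194 CPM) and rps-30 (1485 CPM). In polysomal AL mRNA library 2 was flagged as low for rps-20 (1015 CPM).

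The polysomal to total ratio differed between populations, by the interaction term in limma, for 28 members between DR and AL worms (90.3%, against 67.5% of tested genes), for 31 between *daf-2;rsks-1* and AL worms (100%, against 54.7%), and for 29 between *daf-2;rsks-1* and DR worms (93.5%, against 67.7%).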

How the results depend on the processing

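Scaling was the choice that moved most values. The members with a ratio above 0 in DR worms numbered 13, but 20 under TMM over the tested genes, median-ratio size factors, edgeR and DESeq2, and 4 under plain CPM. Their median minus that of all genes was 0.05 under every one of these. Members with a lower ratio in *daf-2;rsks-1* than in DR worms numbered 28, but 16 under plain CPM. Plain CPM shifted the median of all genes to as much as 0.42 on the log2 scale, in polysomal mRNA of *daf-2;rsks-1* against DR worms, while the members' median minus that of all genes there was -1.12, against -1.13 as deposited. The summed level relative to AL was 1.38 (plain CPM) and 1.42 (CPM of reads outside ribosomal genes) for DR total, 0.908 and 1.05 for DR polysomal, 0.947 and 0.927 for *daf-2;rsks-1* total, and 0.537 and 0.498 for *daf-2;rsks-1* polysomal mRNA, where the deposited values gave 1.33, 0.979, 0.869 and 0.434. The relation of the ratio to length was 0.051 (Spearman) and 0.05 (without the longest and the shortest gene) in AL worms, and without those genes 0.395 in DR and 0.201 in *daf-2;rsks-1* worms.

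Among named genes 11 of the differences turned sign where 1 of the values passed the test. rps-1 in DR polysomal mRNA was 0.0713 under TMM and edgeR, 0.0751 with median-ratio factors, 0.0752 with DESeq2 and 0.0907 in CPM of reads outside ribosomal genes. In *daf-2;rsks-1* worms rps-22 in total mRNA was 0.0111 under plain CPM, rps-2 in polysomal mRNA was 0.221 under plain CPM and 0.1107 in CPM of reads outside ribosomal genes, and rps-6 there was 0.1284 and 0.0181. The diet effect on the ratio of rps-6 was -0.0365 under plain CPM. A further 32 moved past the threshold, 23 lost it and 4300 kept direction and side of it. Another 14 turned sign with neither value past it, those of rps-1 in *daf-2;rsks-1* total and, in 1 case, DR polysomal mRNA, and of the diet effect on the ratio of rps-5, rps-9 and rps-13.

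The pools were not treated as paired by replicate number. Same-numbered total and polysomal libraries of a population correlated at -0.098 to 0.082 in their deviations from group means. These values cannot show whether the pools came from the same worms, since noise of single libraries can hide it. With a replicate block 30 members rose in total mRNA and 19 fell on polysomes under DR, and 30 fell on polysomes in *daf-2;rsks-1* worms. Of the named genes, the block changed the call of rps-6 in the diet effect on the ratio (adjusted p = 0.0566), and no other. Leaving out 1 library at a time gave 30 to 31 members that rose in DR total mRNA, 19 to 20 that fell in DR polysomal, 23 to 25 in *daf-2;rsks-1* total and 30 to 31 in *daf-2;rsks-1* polysomal mRNA. For the ratio it gave 26 to 26 members lower under DR and 31 to 31 lower in *daf-2;rsks-1* than in AL worms. The search of promoter letters was not run, because no promoter sequence was used here. Depth did not limit any rps gene, each of which had at least 2460 reads in every library.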
